A study of Mus musculus with 10 samples.

Results

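The joining (J) segments of the mouse immunoglobulin kappa light chain locus are 5 short coding elements, Igkj1 to Igkj5, that lie in a row on chromosome 6 between the variable (V) segments and the constant exon Igkc. The members described here are translocation junctions, each one the base at which a broken stretch of the J cluster was found joined to a break made at another place on chromosome 6. They were chosen by position alone, as every junction at chr6:70722062-70724423 (mm10), which is the J cluster with 500 bases on each side. There were 159 such junctions among 68433 in 10 libraries, and 5859 of the 68433 lay in the kappa locus as a whole (chr6:67555636-70726754).

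All libraries came from Abelson-transformed pre-B cells of the C57BL/6 strain, which are immortalised early B cells, and all carried the genotype LIG4-/-, so that the ligase of classical end joining was absent from treated and control cells alike. Imatinib, which blocks the Abelson kinase, held every culture in G1 for 48 hours. Doxycycline at 1 µg/ml, given from hour 24, induced a zinc-finger nuclease whose cut near chr6:41554901 served as the bait. The groups were untreated (2 libraries), etoposide at 50 µM for 2.5 hours followed by 12 hours of recovery (2 libraries), and 6 conditions with a single library, namely IFN, IFN with etoposide, the transcription inhibitor DRB, DRB with etoposide, the restriction enzyme AsiSI, and DRB with AsiSI. Etoposide traps topoisomerase II on cut DNA, DRB was given for 2 hours beforehand, and AsiSI was induced with doxycycline and, 20 hours later, tamoxifen at 1 µM. IFN is known only by that abbreviation. The labels do not say whether the AsiSI libraries came from the same clone as the others, nor whether replicates were separate cultures. P-values over libraries therefore measure a spread that may be technical.

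The libraries were sequenced in 4 runs, as their read names show. Run A held replicate 1 of untreated and of etoposide. Run B held untreated replicate 2, IFN and DRB, run C held etoposide replicate 2 and both combinations with etoposide, and run D held both AsiSI libraries. Libraries held between 2044 and 13425 junctions, of which 201 to 1730 lay in the kappa locus and 2 to 29 at the J segments. Prey alignments of the J junctions had medians of 221 and 266 bases in run A and of 51 to 105 bases in the other libraries. The libraries of run A and the AsiSI libraries stood apart, and comparisons over all libraries are given with and without them.

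In developing B cells the RAG recombinase cuts beside V and J segments at recombination signals, each made of a heptamer, a spacer and a nonamer. The cut leaves a hairpin on the coding end, which holds the segment, and a blunt signal end, which holds the heptamer. Igkj1, the first J segment a V segment can reach, is known for its use in early rounds of kappa rearrangement, and the segments further downstream for their use in later rounds. Kappa recombination starts in pre-B cells in G1, and imatinib is known to switch on RAG and the kappa locus in Abelson lines.

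The sequences of the 5 segments with their signals are shown because the results turn on the distance from the border between signal and segment. They were read from the matched bases of the deposited reads, on the plus strand of mm10, from the nonamer to the last base of the segment, and the nonamer and the heptamer are in capitals.
Igkj1, chr6:70722523-70722599: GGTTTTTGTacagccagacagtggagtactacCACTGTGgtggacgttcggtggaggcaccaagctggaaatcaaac
Igkj2, chr6:70722877-70722954: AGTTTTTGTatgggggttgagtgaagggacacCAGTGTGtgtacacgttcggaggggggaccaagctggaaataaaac
Igkj3, chr6:70723186-70723260: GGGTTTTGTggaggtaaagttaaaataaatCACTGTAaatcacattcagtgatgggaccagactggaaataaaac
Igkj4, chr6:70723508-70723585: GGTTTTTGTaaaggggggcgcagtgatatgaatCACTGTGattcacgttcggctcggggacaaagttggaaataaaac
Igkj5, chr6:70723847-70723923: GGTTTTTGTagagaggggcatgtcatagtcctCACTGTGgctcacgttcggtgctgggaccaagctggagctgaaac

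The motifs searched were CACTGTG and GGTTTTTGT on the plus strand, which read CACAGTG and ACAAAAACC on the other strand. The signals of Igkj1, Igkj4 and Igkj5 held both without a difference. The signal of Igkj2 differed at C3G in the heptamer and G1A in the nonamer, and that of Igkj3 at G7A in the heptamer and T3G in the nonamer, with positions counted from 1 at the left of each motif on the plus strand. The spacers measured 23 bases at Igkj1, Igkj2 and Igkj5, 21 at Igkj3 and 24 at Igkj4. Directly right of the segment stood GT, the first bases of a splice donor, at 4 segments, and CT at Igkj3. Igkj3 is the segment known in mice as a non-functional one. The segments themselves are 38 bases long, and 39 at Igkj2, and the reads behind each base ranged from 1 to 30.

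In 8 of the 10 libraries the J window held several percent of all kappa junctions, although it covers 2362 of the 3171119 bases of the locus. Untreated replicate 1 had 17 J junctions of 237 in the kappa locus (7.17%, 95% exact Clopper-Pearson interval 4.23 to 11.2%) and untreated replicate 2 had 29 of 685 (4.23%, 2.85 to 6.02%). With etoposide the counts were 7 of 201 (3.48%, 1.41 to 7.04%) in replicate 1 and 22 of 422 (5.21%, 3.30 to 7.79%) in replicate 2. The intervals, which cover counting error only, overlapped among these 4 libraries.

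The single libraries without AsiSI had shares of 5.63 to 7.21%, the highest just above untreated replicate 1. IFN had 27 J junctions of 433 (6.24%, 4.15 to 8.94%), and IFN with etoposide had 19 of 335 (5.67%, 3.45 to 8.72%). DRB had 18 of 320 (5.63%, 3.37 to 8.74%), and DRB with etoposide had 15 of 208 (7.21%, 4.09 to 11.6%). Over the 8 libraries 154 of 2841 kappa junctions lay at the J segments (5.42%). Per kilobase, the J window held 48.4 to 104.3 times as many junctions as the rest of the locus in these libraries.

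Both AsiSI libraries were far lower, with 3 J junctions of 1288 in the kappa locus for AsiSI (0.233%, 0.0481 to 0.679%) and 2 of 1730 for DRB with AsiSI (0.116%, 0.014 to 0.417%). The lowest of the other 8 libraries was 14.95 times the AsiSI library and 30.1 times the library of DRB with AsiSI. Fisher's exact test on junction counts, two-sided and adjusted over 15 comparisons between libraries, gave adjusted p = 3.99e-11 and 1.82e-10 for AsiSI against untreated replicates 1 and 2, and 1.65e-13 against both for DRB with AsiSI. These p-values cover counting error, not the spread between cultures. AsiSI induction, tamoxifen, run D and any difference of clone cannot be told apart here. DRB with AsiSI differed from AsiSI by -0.117 percentage points (adjusted p = 0.704, the same exact test).

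The V segments of the same locus gave another picture. The share of kappa junctions within 50 bases of an annotated V segment was 25.5% in AsiSI and 24.8% in DRB with AsiSI, inside the range of 20.7 to 31.65% in the other 8 libraries. In 5 comparisons of the AsiSI libraries with untreated or with each other, the lowest adjusted p by Fisher's exact test was 0.131. Between the J window and the end of Igkc, AsiSI held 0 junctions and DRB with AsiSI held 2, against 3 to 9 in each of the other 8 libraries. Another denominator, the junctions within 1 Mb of the bait, does not count prey elsewhere. The AsiSI libraries themselves held more of these (7431 and 10485) than the other 8 (1124 to 5273). Per 1000 of them, the AsiSI libraries had 0.404 and 0.191 J junctions and the other 8 had 5.48 to 15.1. The J counts of the AsiSI libraries are thus low on both scales. As a share of all junctions that were not within 1 Mb of the bait, they were 0.134% in AsiSI and 0.0680% in DRB with AsiSI. The other 8 libraries ranged from 0.0665%, in etoposide replicate 1, to 4.14%, so on that scale the AsiSI libraries did not lie outside the others.

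**Figure D1:**
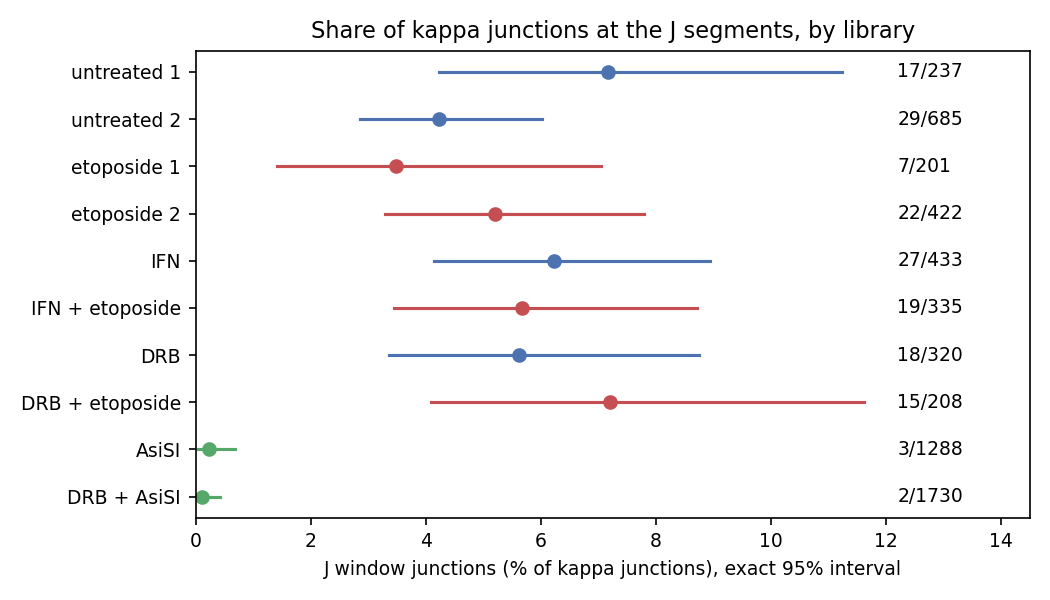
Share of kappa junctions at the J segments (percent, horizontal axis) in each of the 10 libraries (rows), with bars for the 95% exact binomial interval, which covers counting error only. The 8 libraries without AsiSI lie between 3.48 and 7.21%, and both AsiSI libraries lie below 0.3%.

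Igkj1 held more junctions than any other segment when each junction went to the segment whose left border was nearest. It had 84 of 159 (52.8%), followed by 24 each at Igkj2 and Igkj5, 21 at Igkj4 and 6 at Igkj3. By library Igkj1 had 8 and 13 junctions in untreated replicates 1 and 2, 4 and 16 in etoposide replicates 1 and 2, 12 in IFN, 9 in IFN with etoposide, 11 in DRB, 7 in DRB with etoposide and 2 in each AsiSI library. That is 44.4 to 72.7% of J junctions in the 8 libraries without AsiSI. The window adds 500 bases left of Igkj1, and 62 junctions of the 159 lay there, so that Igkj1 also counts junctions that no other segment could take.

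Igkj2 had 3 and 4 junctions in untreated replicates 1 and 2, 0 and 1 with etoposide, 7 in IFN, 3 in IFN with etoposide, 4 in DRB, 2 in DRB with etoposide and 0 in both AsiSI libraries. Igkj4 had 3 and 0 junctions in untreated replicates 1 and 2, 1 and 4 with etoposide, 5 in IFN, 4 in IFN with etoposide, 1 in DRB, 3 in DRB with etoposide and 0 in both AsiSI libraries. Each of these segments was thus seen in 7 of the 10 libraries, at counts of 7 or fewer. Igkj3 had 1 junction in each of 6 libraries and 0 in the other 4. Its signal departs from both motifs, as does that of Igkj2, and has the shortest spacer. Whether the signals bear on these counts was not tested.

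Igkj5, the last segment before Igkc, was uneven among libraries. It had 11 junctions in untreated replicate 2 and 2 in untreated replicate 1, 1 and 0 with etoposide, 2 in IFN, 3 in IFN with etoposide, 1 in DRB, 3 in DRB with etoposide, 1 in AsiSI and 0 in DRB with AsiSI. Untreated replicate 2 alone held 11 of its 24 junctions, and without that library Igkj5 had fewer junctions than Igkj2 or Igkj4. The count depends on the assignment. By the side of the break, as for the losses below, untreated replicate 2 had 7 of 19 junctions at Igkj5, and 4 junctions instead of 0 at Igkj4.

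**Figure D2:**
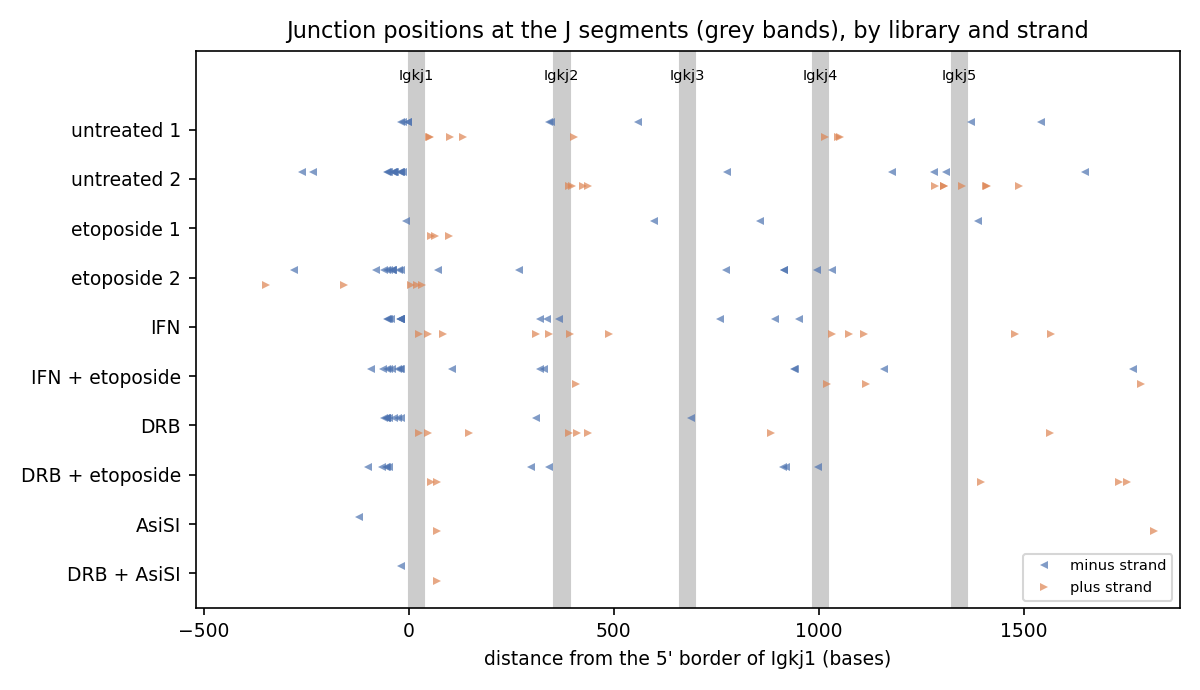
Position of each of the 159 J junctions relative to the first base of Igkj1 (bases, horizontal axis) in the 10 libraries (rows), with colour for the strand and grey bands for the 5 segments. Points crowd left of Igkj1 on the minus strand, and the 2 AsiSI rows hold 3 and 2 points.

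The strand of a junction says which side of the break was captured. A plus-strand junction reads from the break rightwards into the J segment and Igkc, which is the coding side, and keeps the order of bait and kappa locus. A minus-strand junction reads leftwards into the recombination signal, which is the signal side, and is an inversion if both breaks lie on one chromosome. The files do not tell joins within one chromosome from joins between the homologues. Over all libraries 100 J junctions were on the minus strand and 59 on the plus strand (62.9% minus).

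The untreated libraries had 9 minus and 8 plus J junctions in replicate 1 and 18 and 11 in replicate 2. Those with etoposide had 4 and 3 in replicate 1 and 17 and 5 in replicate 2. In the single libraries the counts were 15 and 12 for IFN, 15 and 4 for IFN with etoposide, 10 and 8 for DRB, and 10 and 5 for DRB with etoposide. Minus-strand junctions outnumbered plus-strand ones in all 8 libraries without AsiSI, at 52.9 to 78.9% of J junctions. The AsiSI libraries had 1 and 2, and 1 and 1.

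Elsewhere in the kappa locus the strands were near balance, with 46.2 to 56.5% minus in the 10 libraries. The minus share of J junctions exceeded that of the other kappa junctions by 7.56 percentage points on average (58.95 ± 13.4% against 51.4 ± 2.87%, SD, n = 10 libraries), and was higher in 8 of 10. This did not pass an exact sign-flip permutation test over libraries (two-sided p = 0.127, adjusted p = 0.889 over the 7 comparisons of junction type), which was chosen after the values were seen. Without both AsiSI libraries, whose shares rest on 3 and 2 junctions, the difference was 11.55 points in 8 libraries (exact p = 0.00781). Without both libraries of run A it was 8.91 points in 8 libraries (exact p = 0.172), and without run A and AsiSI it was 14.7 points in 6 libraries (exact p = 0.0313, the smallest that 6 libraries can give). When the J joins found in several libraries, described below, were left out of the J junctions alone, the difference was -3.03 points over all 10 libraries (exact p = 0.711) and 4.57 points in the 8 libraries without AsiSI (exact p = 0.352). The difference was thus smaller without the recurrent joins in both sets of libraries, and it turned negative in the set that holds the AsiSI libraries.

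The balance of strands turned over across the J cluster. In the 8 libraries without AsiSI, the 500 bases left of Igkj1 held 58 minus-strand and 2 plus-strand junctions (96.7% minus). From the border of Igkj1 to the end of Igkj5 there were 35 minus and 44 plus (44.3% minus), and in the 500 bases right of Igkj5 there were 5 and 10. Further out, the 5 kilobases left of the window held 41 minus and 9 plus, and the 5 kilobases right of it held 16 minus and 59 plus (21.3% minus). Prey reads thus pointed mostly away from the cluster on both sides.

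Each library without AsiSI showed this pattern on the left. Minus-strand junctions were the majority left of Igkj1 in 8 of 8 of these libraries and in the left flank in 8 of 8, while in the right flank they were the majority in 0 of 8. The only plus-strand junctions between the left edge of the window and Igkj1 were 2 from etoposide replicate 2. In the AsiSI libraries together the left flank held 3 minus and 0 plus junctions and the right flank 2 and 2, too few to show an order. These counts are given as a description, with no test.

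**Figure D3:**
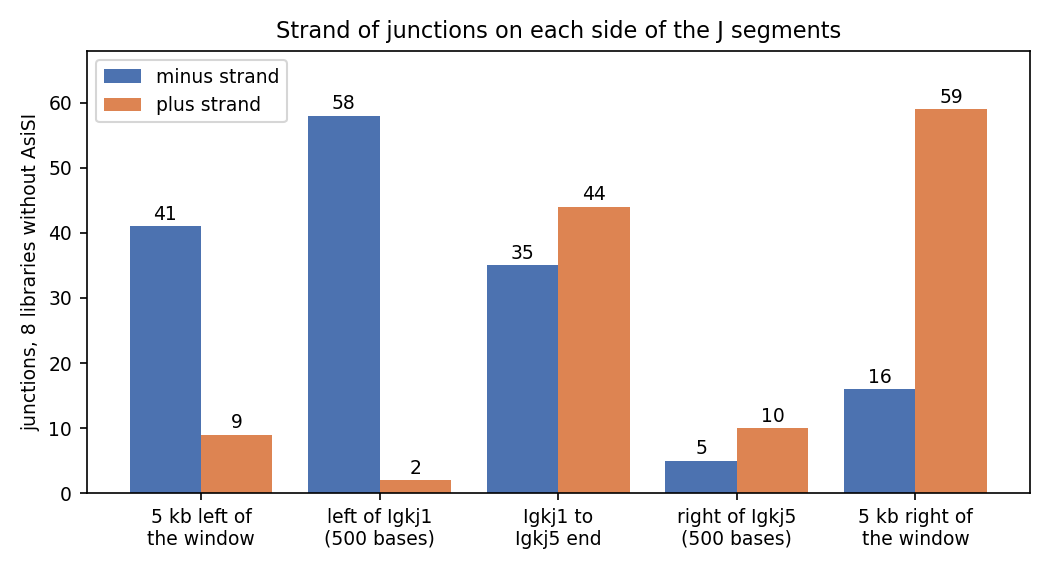
Number of minus-strand and plus-strand junctions (vertical axis, summed over the 8 libraries without AsiSI) in 5 regions from left to right: the 5 kilobases left of the window, the window left of Igkj1, Igkj1 to Igkj5, the window right of Igkj5, and the 5 kilobases right of the window. Minus-strand junctions lead left of Igkj1 (58 against 2) and plus-strand junctions lead in the right flank (59 against 16).

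To measure how much sequence was missing between the border of a segment and the junction, minus-strand junctions were assigned to the next border on their right and plus-strand junctions to the next border on their left. By this count Igkj1 had 60 minus and 22 plus, Igkj2 12 and 11, Igkj3 3 and 1, Igkj4 13 and 11, and Igkj5 7 and 12. The remaining 5 minus-strand and 2 plus-strand junctions had no such border in the cluster. The signal side was thus the larger at Igkj1, the sides were close at Igkj2 and Igkj4, and the coding side was the larger at Igkj5.

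Most junctions lay well away from the borders. On the signal side, 95 junctions lacked a median of 47 bases (quartiles 21 and 71.5, range 0 to 328). Counted for a 23-base spacer, 4 of these ended within the heptamer, 24 in the spacer, 10 in the nonamer and 57 beyond it. On the coding side, 57 junctions lacked a median of 72 bases (quartiles 48 and 147, range 5 to 494). On that side 47 of the 57 lacked the whole segment or more, and 10 kept part of it. These losses are distances counted from the border, and whether each break began there was not tested. The terms signal side and coding side follow the strand alone.

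Junctions exactly at a border were rare. A loss of 0 or 1 base was found in 2 of the 95 signal-side junctions, both at Igkj1 in untreated replicate 1 and both with 0 bases lost, and in 0 of the 57 coding-side junctions. The 0 of 57 allows a share of up to 5.26% (3 counts), so rarer coding-side junctions at a border were not detectable at this depth. At Igkj1 the median loss was 41 bases on the signal side (60 junctions) and 59 on the coding side (22 junctions). At Igkj2 it was 33.5 and 54 bases, at Igkj4 73 and 88, and at Igkj5 163 and 202.5. The signal-side median was the smaller at each of these 4 segments, while Igkj3 had 1 coding-side junction. The largest loss that could be counted was set by the neighbouring border or the window edge, and it differed between the sides. Its part in these medians was not tested.

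The comparison of losses between strands was planned for libraries with at least 10 junctions on each strand within 50 bases of the nearest border, which 0 libraries had. It was therefore made with at least 3 on each strand within 150 bases. Distances from the nearest border were counted as negative where a minus-strand junction lay right of it or a plus-strand junction left of it. In the 8 libraries that met this minimum, the median signed distance averaged 34.4 bases on the signal side and 49.9 on the coding side. The difference was -15.6 bases (exact sign-flip permutation p = 0.0781). That difference is not past 0.05. It was -20.6 bases without etoposide replicate 2 (exact p = 0.0156), -7.58 without both libraries of run A (exact p = 0.313), and -15.1 with the border taken on the side of the break as above (exact p = 0.117). The share of junctions within 1 base of a border averaged 3.13% on the signal side and 0% on the coding side (exact p = 1), and it was 0% on both sides without untreated replicate 1.

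**Figure D4:**
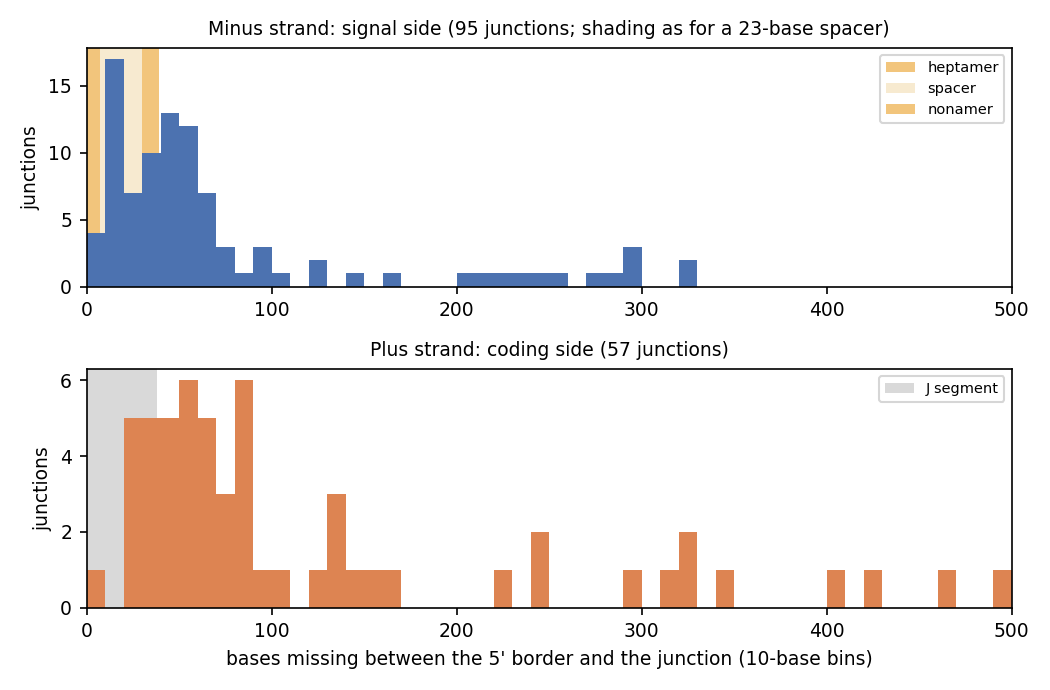
Bases missing between the left border of a J segment and the junction (horizontal axis, 10-base bins) for 95 minus-strand junctions (upper panel) and 57 plus-strand junctions (lower panel), all libraries together. Shading marks where a heptamer, a spacer and a nonamer lie on the signal side, and the medians are 47 and 72 bases.

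The most frequent positions all lay on the signal side of Igkj1. Position 70722543 on the minus strand was found 9 times in 7 libraries (18 bases lost, within the spacer), 70722509 was found 7 times in 6 libraries (52 bases lost), and 70722514 was found 6 times in 6 libraries (47 bases lost). The positions 70722509 and 70722514 lie left of the nonamer. All 3 are the capitals in the 60 bases that end at the border of Igkj1, chr6:70722502-70722561, plus strand: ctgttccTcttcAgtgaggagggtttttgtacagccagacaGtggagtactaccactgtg. At the other segments no position was found more than 2 times. Position 70722952 at Igkj2 was found in untreated replicate 2 and in DRB, position 70723868 near Igkj5 was found 2 times in untreated replicate 2, and every other position there was found a single time.

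Several of these positions came with the same bait end and the same overlap. The overlap is the number of bases at the join that match both bait and prey. Joins with the same position, strand, bait end and overlap in 2 or more libraries made up 29 of the 159 J junctions (18.2%), in 8 different joins. All 29 were minus-strand junctions assigned to Igkj1. In the rest of the kappa locus 495 of 5700 junctions (8.68%) were of this kind. The recurrent J joins had a median overlap of 7 bases, against 3 in the other 130 J junctions, and 71 of those 130 (54.6%) were on the minus strand. In the rest of the kappa locus recurrent joins also had the longer overlap, with a median of 4 bases against 2.

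The sequences of the 3 most frequent recurrent joins show the shared bases in capitals, each time as the bait at the zinc-finger nuclease cut, the prey left of Igkj1 on its minus strand, and the join as read.
Join 1, bait: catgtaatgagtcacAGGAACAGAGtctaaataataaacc
Join 1, prey: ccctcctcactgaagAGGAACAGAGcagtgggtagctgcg
Join 1, read: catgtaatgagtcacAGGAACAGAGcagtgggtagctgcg
Join 2, bait: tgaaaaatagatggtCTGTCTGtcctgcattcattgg
Join 2, prey: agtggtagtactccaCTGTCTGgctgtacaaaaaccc
Join 2, read: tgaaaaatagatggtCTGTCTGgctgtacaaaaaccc
Join 3, bait: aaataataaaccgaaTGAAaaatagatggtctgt
Join 3, prey: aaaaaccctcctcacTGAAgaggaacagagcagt
Join 3, read: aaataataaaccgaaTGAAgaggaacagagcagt

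The first join, at 70722509 with bait end 41554929, shares 10 bases and was found 7 times, in untreated replicate 2, etoposide replicate 2, IFN, IFN with etoposide, DRB (2 times) and DRB with etoposide. The second, at 70722543 with bait end 41554969, shares 7 bases and was found 6 times, in untreated replicate 2, etoposide replicate 2, IFN, IFN with etoposide, DRB, and DRB with AsiSI. The join at 70722514 with bait end 41554951, shares 4 bases and was found 5 times in 5 libraries, and 4 of its 5 reads matched the printed sequence throughout. None of the 8 recurrent joins was found in the 2 libraries of run A. The reads of the first and the second join each had 6 distinct prey ends, those of the join at 70722514 had 5, and 0 J reads were identical over their whole length between libraries. In 1 case, the join at 70722509, untreated replicate 2 and IFN with etoposide shared the prey start and end. Over the whole genome, 93 reads were identical in pairs of libraries from different runs, in 9 of 37 such pairs, with 21 for etoposide replicate 2 and AsiSI, 18 for DRB with etoposide and DRB with AsiSI, and 14 for untreated replicate 2 with etoposide replicate 2. In the 8 pairs within a run there were 0. Their part in the recurrent joins was not tested.

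The overlaps of J junctions as a whole were short. Of the 159, 137 had an overlap of at least 1 base (86.2%), 8 were joined directly with neither overlap nor insertion (5.03%), and 14 had inserted bases (8.81%). In 127 of the 137 the shared bases matched bait and prey without a mismatch, and the longest overlap was 12 bases. Insertions measured 1 to 24 bases, with 8 of the 14 at 4 bases or fewer. The median overlap was 3 bases, and it was 3 in 7 libraries, 2 in untreated replicate 1, 1 in AsiSI and 0.5 in DRB with AsiSI.

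The mean overlap of J junctions did not differ beyond the spread between libraries from that of the other kappa junctions. Counting inserted bases as negative, it averaged 2.33 ± 1.52 bases for J junctions and 2.40 ± 0.358 for the other kappa junctions (SD, n = 10 libraries, difference -0.0700, exact sign-flip permutation p = 0.873). By the same test the share with insertions differed by 1.31 percentage points (exact p = 0.893) and the share joined directly by 1.41 points (exact p = 0.793). All 3 differences change sign when libraries are left out. In run A the J means were 0.588 bases in untreated replicate 1 and 0.429 in etoposide replicate 1, against 2.44 to 4.61 in runs B and C. Without run A the difference in mean overlap was 0.467 bases in 8 libraries (exact p = 0.305), and without run A and AsiSI it was 1.03 bases in 6 libraries (exact p = 0.0625). In those 6 libraries insertions differed by -4.03 points (exact p = 0.13) and direct joins by -0.131 points (exact p = 1). Overlaps of 7 or more bases made up 26 J junctions (16.4%) and 352 other kappa junctions (6.18%), and an overlap of exactly 10 bases made up 10 (6.29%) and 16 (0.281%). The first join and another join of 3 reads with 10 shared bases and 1 mismatch account for all 10 of those J junctions. Of the 26 J junctions with 7 or more shared bases, 16 were recurrent joins, which leaves 10 of 130 (7.69%), beside 262 of 5205 (5.03%) in the rest of the locus without its own recurrent joins.

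**Figure D5:**
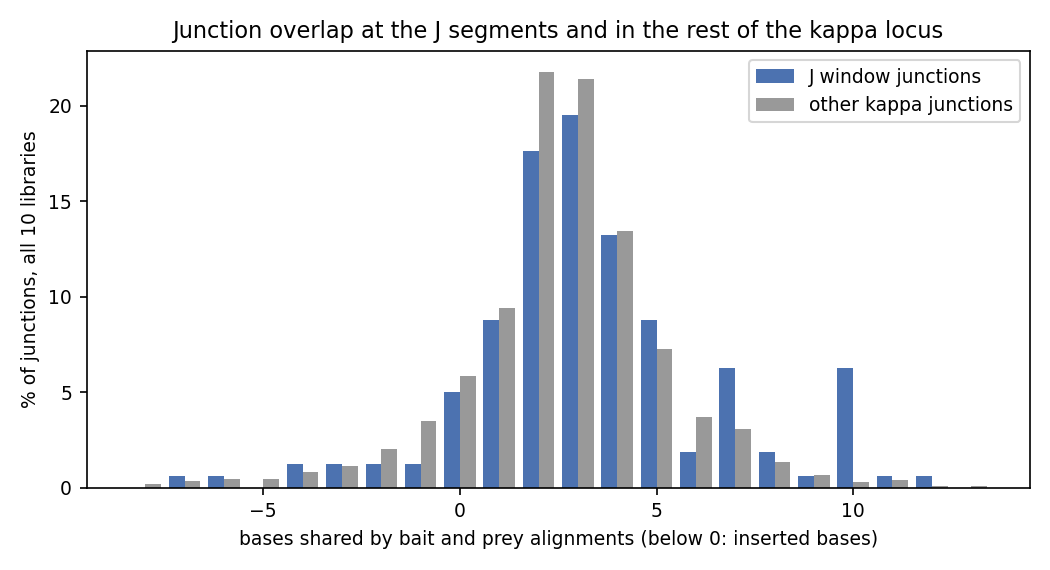
Share of junctions (percent, vertical axis) by the number of bases shared by bait and prey (horizontal axis, values below 0 are inserted bases) for 159 J junctions and 5700 other kappa junctions, all 10 libraries. Both sets have their middle near 3 bases, and the J junctions have separate peaks at 7 and 10 bases.

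Signal-side and coding-side junctions could be compared for junction type in 2 libraries, untreated replicate 2 and IFN, which had at least 10 on each strand. Mean overlap was 3.65 ± 0.212 bases on the minus strand and 1.83 ± 1.53 on the plus strand (SD, n = 2, exact p = 0.5, the smallest that 2 libraries allow). Without the recurrent joins the difference was -0.00682 bases. Insertions were 12.22% on the minus strand and 8.33% on the plus strand (exact p = 1). Direct joins were 9.44% and 0% (exact p = 0.5), and neither difference can be judged with 2 libraries. The bait ends of J junctions and of the other kappa junctions had the same median, position 41554951, and nearly the same quartiles.

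Etoposide was compared with untreated to ask whether topoisomerase II breaks change the joining of J segments to the bait. The J share of kappa junctions was 4.35 ± 1.22% with etoposide and 5.70 ± 2.08% untreated (SD, n = 2 each), a difference of -1.36 points (exact permutation p = 0.667, where 2 against 2 cannot go below 0.33). It moved by -3.69 points in replicate 1 and by 0.98 points in replicate 2. Over 4 pairs of libraries with and without etoposide the difference averaged -0.422 points (exact sign-flip permutation p = 0.875, the smallest possible being 0.13), with -0.564 for IFN and 1.59 for DRB. In sum 63 of 1166 kappa junctions lay at the J segments with etoposide (5.40%) and 91 of 1675 without (5.43%). Without replicate 1 of both groups the mean of the pairs was 0.667.

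Per 1000 junctions near the bait, J junctions numbered 5.66 ± 0.255 with etoposide and 10.3 ± 6.81 untreated (difference -4.65, exact p = 0.667). Untreated replicate 1, with 15.1, made this difference, since untreated replicate 2 had 5.50 and the 2 libraries with etoposide 5.84 and 5.48. Without untreated replicate 1 it was 0.163. Over the 4 pairs the difference was -2.48 (exact p = 0.375), and without the pair of replicate 1 it was -0.209.

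Counted within 50 bases of a segment's left border, J junctions were fewer with etoposide in 4 of 4 pairs. Untreated replicate 1 had 10 of 237 kappa junctions there (4.22%) and etoposide replicate 1 had 1 of 201 (0.498%), while replicate 2 had 18 of 685 (2.63%) and 11 of 422 (2.61%). IFN had 18 of 433 (4.16%) and IFN with etoposide 10 of 335 (2.99%), and DRB had 9 of 320 (2.81%) and DRB with etoposide 3 of 208 (1.44%). The share averaged 1.88 ± 1.13% with and 3.45 ± 0.851% without (SD, n = 4 each, difference -1.57 points, exact p = 0.13, the smallest that 4 pairs can give). The values with and without overlap, and replicate 2 differed by -0.0211 points. Per 1000 junctions near the bait the difference was -3.03, also lower in 4 of 4 pairs (exact p = 0.13). In 3 of these pairs the library with etoposide is in run C and its partner in run B.

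The minus-strand share of J junctions was higher with etoposide in 4 of 4 pairs, by 4.20 points in replicate 1, 15.2 in replicate 2, 23.4 for IFN and 11.1 for DRB. The means were 70.0 ± 10.2% with and 56.5 ± 3.89% without (SD, n = 4 each, difference 13.5, exact p = 0.13, the smallest that 4 pairs can give). In sum 46 of 63 J junctions were on the minus strand with etoposide (73.0%) and 52 of 91 without (57.1%). Run and etoposide cannot be told apart in the 3 pairs of runs B and C, and run C had 75% minus, run B 58.1%. The pair within run A, which shares a run, gave the smallest difference. Over untreated and etoposide alone the difference was 9.70 points (exact p = 0.667).

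The Igkj1 share of J junctions was 64.9 ± 11.0% with etoposide and 45.9 ± 1.58% untreated (SD, n = 2 each, difference 19.0, exact p = 0.33, the smallest that 2 against 2 allow). The 2 groups did not overlap, with 57.1 and 72.7% against 47.1 and 44.8%, but the etoposide values rest on 4 of 7 and 16 of 22 junctions. Over the 4 pairs the difference was 6.62 points (exact p = 0.625), with 2.92 for IFN and -14.4 for DRB. Leaving out the pair of replicate 2 turned it to -0.479. With segments assigned by the side of the break, as for the losses, the difference was 12.17 points for etoposide against untreated and 0.0391 over the 4 pairs (exact p = 1).

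Each other single library was set against both libraries of its control group. For the J share, 4 of 15 comparisons passed an adjusted p of 0.05 by Fisher's exact test, and all 4 set an AsiSI library against untreated. Among the comparisons without AsiSI the lowest adjusted p was 0.291, for etoposide against untreated in replicate 1. Within 50 bases of a border that comparison passed as well (1 of 201 against 10 of 237, adjusted p = 0.0408 by the same exact test), which made 5 of 15. IFN with etoposide differed from etoposide by 2.19 and 0.458 points, and DRB with etoposide by 3.73 and 2.00 points, without passing the test. For the minus-strand share and for the Igkj1 share, 0 of 15 comparisons passed by that exact test, 0 had an unadjusted p under 0.05, and the lowest adjusted p values were 1 and 0.8455. With 7 to 29 J junctions a library, the interval of an Igkj1 share was wide even in the library with the most, untreated replicate 2 (26.45 to 64.3%), and differences within it were not detectable at this depth.

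Junctions at the J segments of other antigen receptor loci were few. With 500 bases on each side, the 4 Ighj segments of the heavy chain locus had 1 junction in all 10 libraries, the 5 Iglj segments of the lambda locus 1, the 60 Traj segments 0, the 2 Trdj segments 1 and the 4 Trgj segments 4. The 14 Trbj segments had 64, all within 1 Mb of the bait, which lies in the same locus. The constant exon Igkc with the same margin had 32. At the edges of the kappa J window, the 500 bases just outside held 12 junctions on the left and 9 on the right, and the 500 bases just inside held 62 and 16.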

How the data were processed

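Junctions in genomic DNA were captured by HTGTS, an assay that amplifies linearly from a bait primer across the join, and sequenced on a MiSeq with the standard pipeline of the assay, per the labels' protocols. Per the submitters' processing notes, the tool bedtools was used, with builds GRCm38.p2 and mm10. The deposited tables list 1 junction per row, with position, strand and alignment limits of bait and prey, per the file headers. They are positions and not counts, with no normalization. Junctions were counted from them with Python 3.11.15, pandas 2.3.3 and SciPy 1.17.1. Segment positions were taken from RefSeq's gene annotation (GRCm38.p6, the same main chromosomes as mm10). Sequences were read from the matched bases of the deposited reads, which covered 89.8% of the 2362 bases of the window.

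Groups and replicate numbers came from the labels, which name untreated replicates 1 and 2 as controls of etoposide replicates 1 and 2. Groups were compared with exact permutation or sign-flip tests, and single libraries with Fisher's exact test and Benjamini-Hochberg adjustment. All tests were two-sided. The assignment of junctions to segments was checked on simulated junctions. These all lay nearest to their own border and on its expected side, so both ways of assignment had to find it. Junctions further out, where the ways can differ, were not covered. The permutation and sign-flip tests were checked on small sets of made-up values. Fisher's test, the adjustment and the intervals were not checked in this way. Intervals were exact (Clopper-Pearson, 95%). All 5 segments were described in every library, and positions were named where they were among the 3 most frequent of a segment. The planned comparison of losses (10 junctions a strand, within 50 bases of the nearest border) had 0 libraries and was replaced by one with a lower minimum and a wider limit (3 a strand, within 150 bases). Alternatives were counting identical junctions a single time, a narrower window, a prey alignment of at least 50 bases, leaving out libraries, V segments as comparison, and others chosen after seeing the data. The members and lists were chosen with earlier results of these data known.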

Additional observations from a re-analysis of the deposited data

Results flagged for a closer look

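Effects of etoposide that pointed opposite ways in pairs of libraries are listed here, and none of these differences was tested. The J share of kappa junctions was higher with etoposide in the DRB pair (1.587 percentage points) and lower in the IFN pair (-0.564). The Igkj1 share of J junctions was lower with etoposide in the DRB pair (-14.44 points), higher in the IFN pair (2.92) and higher in both pairs of untreated and etoposide (10.1 and 27.9). J junctions per 1000 junctions near the bait were higher with etoposide in the DRB pair (0.9194), lower in the IFN pair (-1.53) and lower in both untreated and etoposide pairs (-9.28 and -0.0175). Each pair is 1 library against 1, and the IFN and DRB pairs each span runs B and C.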

How the results depend on the processing

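Over 20 results and 188 alternatives, 158 neither reversed nor crossed the 0.05 threshold, 25 reversed and 5 newly passed it. For results that rest on 2 against 2 libraries, 4 pairs or 2 libraries, no alternative could pass 0.05. Only a change of sign could be seen in them. The 158 include counts of comparisons within 1.5 times the reported count (the J share between libraries went from 4 to 5 of 15 within 50 bases of a border) and the share within 1 base of a border falling to 0. Each of the 25 had a main p above 0.05, and the cause of a change was not tested unless the alternative itself removes the junctions. Several alternatives were chosen after seeing the data.

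With prey alignments of at least 50 bases, the J share over the etoposide pairs was 0.4411 points. In the same setting the J minus other kappa differences were -3.351 points for insertions, 0.4994 bases for mean overlap and 16.6 points for the minus share (exact p = 0.0215), and the insertion difference between strands was -1.282. Without both AsiSI libraries the J minus other kappa differences were -1.811 points for insertions, -0.8029 for direct joins, 0.2196 bases for mean overlap and 11.55 for the minus share. Without run A and AsiSI they were -4.034, -0.1312, 1.032 and 14.69 (exact p = 0.0313), and without run A alone 0.467 for mean overlap. Within 50 bases of a border, the etoposide pairs gave -1.571 for the J share, 23.18 for the minus share, 9.343 for the Igkj1 share and -3.03 per 1000. There the minus and Igkj1 shares rest on 1 J junction in etoposide replicate 1 and 3 in DRB with etoposide. Without recurrent joins the minus share difference was -3.028 and the strand difference in mean overlap -0.006818.

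Leaving out 1 library or pair gave these ranges. For etoposide against untreated, the J share ranged from -2.825 to 0.1144, the minus share from -0.3622 to 19.77, the Igkj1 share from 11.2 to 26.78 and J junctions per 1000 from -9.462 to 0.1629. Over the pairs they ranged from -1.092 to 0.6674, 10.17 to 16.57, -0.4788 to 13.64 and -3.61 to -0.2094. For J minus other kappa, insertions ranged from -2.916 to 2.762, direct joins from -1.492 to 2.342, mean overlap from -0.3319 to 0.1907 and the minus share from 4.758 to 10.07 (exact p = 0.0117 without AsiSI). Between strands, insertions ranged from -3.333 to 11.11, direct joins from 5.556 to 13.33, mean overlap from 0.5909 to 3.05 and the median loss from -20.57 to -10.86.

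With the replicate number as a block, the paired difference of etoposide and untreated was the same by construction (J share -1.355, minus share 9.703, Igkj1 share 18.99, per 1000 -4.65), with exact p of 1 for the first and 0.5, the smallest that 2 pairs allow, for the others. Whether same-numbered libraries deviate together cannot be judged from 2 pairs. Depth limits the comparisons, since libraries held 2 to 29 J junctions.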
